A study of Homo sapiens with 16 samples.

Results

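Reverse-transcription stops at uridines (U) were compared between HEK293T, a human embryonic kidney line, and HCT116, a human colorectal carcinoma line, both labelled wild type. The measure was the stop ratio, the reads that stop at a position divided by the reads that cover it, and its fold in a CMC-treated, Terminator-treated library (CMC+Terminator) over the untreated library (CMC-) of the same deposited table. A U entered the comparison when all 4 tables, replicates 1 and 2 of each line, listed it with at least 10 stop reads in the CMC+Terminator library. A table lists no position with fewer than 5 treated stop reads, fewer than 1 control stop read or a fold under 1, so a U absent from a table is not a U without stops. This left 3383 U among the 152380 U that any of the 4 tables listed. Of 7096 U listed in all 4 tables, the other 3713 were under the read minimum. Per the labels, polyadenylated RNA of each line was fragmented before CMC treatment, and the CMC- libraries had neither CMC nor Terminator. The labels of the CMC+Terminator libraries end in RE+ for HEK293T and in XhoI for HCT116. The names of the HCT116 tables carry the word Lacz and those of HEK293T do not, and the labels do not say what it stands for. No source used here says whether replicates came from separate cultures, so p-values measure only the spread between these libraries, which may be technical.

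Pseudouridine is the isomer of uridine in which the base is joined to the sugar through carbon, and it is the most abundant modified nucleoside of cellular RNA. The carbodiimide CMC forms a bulky adduct on it that blocks reverse transcriptase, and a U where stops are more frequent after CMC is therefore a candidate pseudouridine. Terminator exonuclease degrades RNA from a 5′ monophosphate end. In ribosomal and spliceosomal RNA, dyskerin makes pseudouridine at sites chosen by H/ACA guide RNAs, while stand-alone enzymes such as PUS1, PUS7 and TRUB1 recognise tRNAs, and also mRNAs, by sequence and structure. Pseudouridines of rRNA cluster in the functional centres of the ribosome, and those of U4 and U5 snRNA lie in regions used for splicing.

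The U on which the comparison turns are shown with 10 bases of the transcript on either side, 5′ to 3′, as the authors' tables give them, with T for U; the capital T marks the U at which stops were counted. The set holds the mRNA, rRNA and mitochondrial tRNA positions with the clearest separation between lines, followed by 3 positions with a fold of at least 4 in all 4 tables and by 18S base 1248, which had many stops without CMC. Coordinates are those of the tables (hg38) and give the position of the capital T.
RPL23 nucleotide 497 (chr17:38850172, minus strand, CDS): tgtgcagactTgtggccccgg
BSG nucleotide 1053 (chr19:582751, plus strand, 3′ UTR): ctgaggcaggTggcccgagga
CALR nucleotide 270 (chr19:12940843, plus strand, CDS): tcccagtatcTatgcctatga
18S rRNA base 1692 (chr21:8438567, plus strand): ccctgcccttTgtacacaccg
18S rRNA base 1624 (chr21:8394289, plus strand): attgcaattaTtccccatgaa
28S rRNA nucleotide 4687 (chr21:8445831, plus strand): ggattatgacTgaacgcctct
MT-TF nucleotide 29 (chrM:605, plus strand): ctcaaagcaaTacactgaaaa
28S rRNA nucleotide 3804 (chr21:8217690, plus strand): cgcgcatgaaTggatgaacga
28S rRNA nucleotide 4518 (chr21:8218404, plus strand): gagctgggttTagaccgtcgt
RNU4-1 nucleotide 72 (chr12:120293166, minus strand): ttgaaaacttTtcccaatacc
18S rRNA base 1248 (chr21:8438123, plus strand): ttaatttgacTcaacacggga

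The U fell mainly in abundant RNAs. Counted once per distinct flanking sequence, since rRNA genes and pseudogenes repeat the same sequence at several loci, there were 2191 U. Of these, 665 lay in mRNAs of 161 genes, 308 of them in mRNAs of ribosomal proteins, and 554 lay in mitochondrial mRNAs. There were 310 in 28S rRNA, 158 in 18S rRNA, 92 in the 45S precursor, 14 in 5.8S rRNA and 239 in mitochondrial rRNA. A further 72 carried pseudogene names, 19 lay in mitochondrial tRNAs, 14 in lncRNAs, 13 in snRNAs, 6 in snoRNAs and scaRNAs and 2 in nuclear tRNAs. Counts over all loci are called copies included below, and the others refer to distinct sequences.

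The library totals behind the authors' scaling were 16327066 and 15794164 reads for HEK293T CMC+Terminator and 22493497 and 24001583 for HCT116 CMC+Terminator. For CMC- they were 19063723 and 15676715 in HEK293T and 27272112 and 31261784 in HCT116. Depth at the compared U differed by RNA class. An mRNA U had a median of 259 covering reads in HEK293T CMC+Terminator and 175 in HCT116, while an 18S U had 764 in HEK293T and 7890 in HCT116. Of 12 epithelial markers, 1 and 2 genes had listed positions in the HEK293T tables against 6 and 7 in the HCT116 tables; of 11 markers of HEK293T, 7 and 6 had listed positions in HEK293T against 0 and 0 in HCT116. CDX2, an intestinal transcription factor on the epithelial list, was listed only in HEK293T, at 5 and 8 positions. The HEK293T values were fractional, with 5.46% of values whole at these U, while 100% were whole in HCT116. The line, the library label, the Lacz in the table names and the way of counting reads cannot be told apart in these tables.

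Most U had like folds in the lines. The median fold of a U was 1.45 and 1.51 in the HEK293T tables and 1.53 and 1.64 in the HCT116 tables, and at positions of other bases it was 1.32 and 1.39 in HEK293T and 1.41 and 1.45 in HCT116. The difference in log2 fold (HEK293T minus HCT116) had a median of -0.08 over distinct U and -0.09 over all 9953 positions tested, of any base, and it was within 0.5 at 1709 of the 2191 distinct U. It reached 1 in size at 97 of them. The median standard error (SE) of this difference was 0.26. In edgeR's quasi-likelihood test, with p-values adjusted over all tested positions, 0 U were called higher in HEK293T and 0 higher in HCT116, where a call needed an adjusted p under 0.05 and at least a 2-fold difference; 0% of all tested positions were called in either direction. The lowest adjusted p of a U was 0.0707. At an unadjusted p under 0.05 there were 60 U, copies included, with a higher fold in HEK293T and 183 with a higher fold in HCT116, where 1.47% and 5.88% of all tested positions did so. DESeq2 called 0 in either direction, with no adjusted p for 2943 of the 3383 U, and limma on the log2 folds called 0 higher in HEK293T and 1 higher in HCT116, MT-TF nucleotide 29.

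Separation of the tables gave more sites than the test. At 355 U both HEK293T folds lay above both HCT116 folds, and at 694 both lay below (17.2% and 36.2% of all tested positions, copies included, did so). With a difference of at least 2-fold as well, 8 U were higher in HEK293T and 87 in HCT116 (0.231% and 3.09% of all tested positions, copies included). Adding an unadjusted p under 0.05 (edgeR) left 4 distinct U higher in HEK293T and 62 higher in HCT116. Copies included, these were 4 and 85 of the 3383 U, against 12 and 151 of the 6570 positions of other bases. Of all tested positions, 0.161% and 2.37% did so. Of these 62, 41 lay in mRNAs of 31 genes, 17 of the 41 in mRNAs of ribosomal proteins. In the rest, 7 lay in 18S rRNA, 4 in 28S rRNA, 4 in mitochondrial mRNAs and 2 in mitochondrial tRNAs. The CMC- stop ratio differed in the opposite direction to the fold at 57 of the 62, with a median log2 difference of 0.79 there against -0.59 in the CMC+Terminator libraries. At all 4 U with a higher fold in HEK293T the CMC- ratio was lower in HEK293T, with a median difference of -0.67. The fold divides by the CMC- ratio, and these U were chosen by their fold. An opposite CMC- difference was thus in part fixed by the choice. Of the 62, 10 rested on a mean of fewer than 5 stop reads in the HCT116 CMC- libraries.

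**Figure D1:**
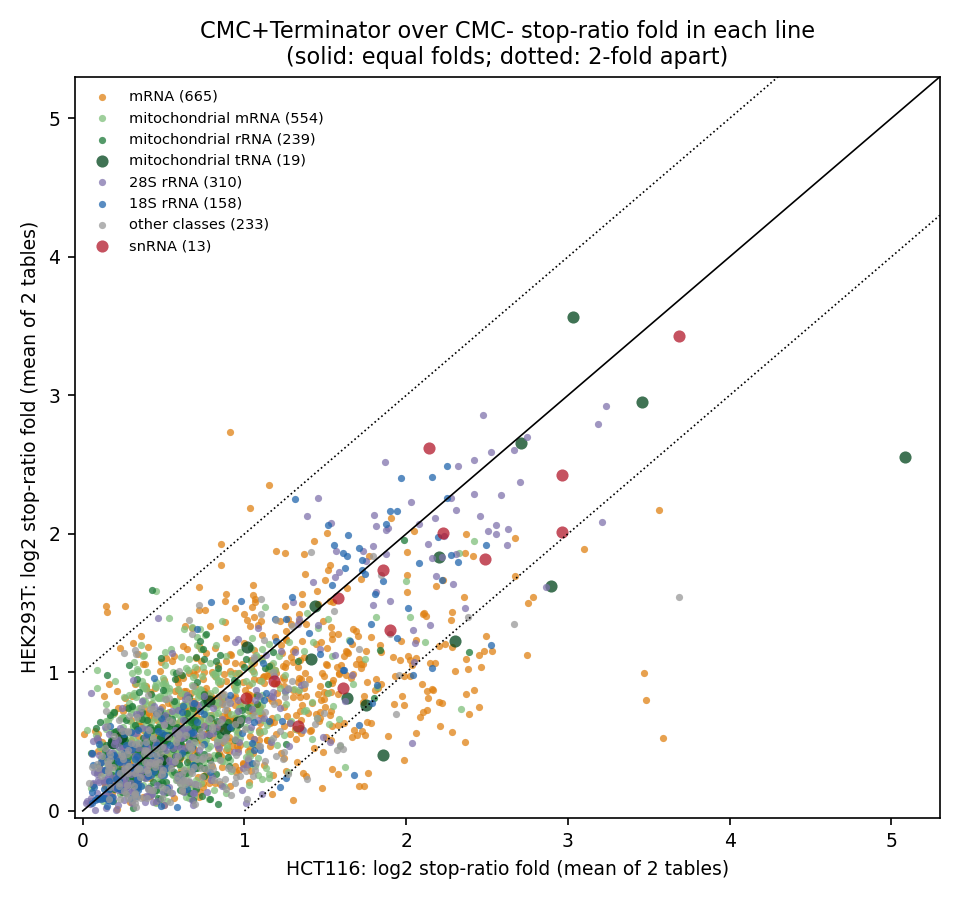
Mean log2 stop-ratio fold of each distinct U in HEK293T (vertical) against HCT116 (horizontal), coloured by RNA class; the solid line marks equal folds and the dotted lines a 2-fold difference. The points run along the solid line, and more mRNA points lie beyond the lower dotted line, where HCT116 was higher, than beyond the upper one.

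Across the 2191 distinct U, as a description, log2 folds correlated at 0.69 between the HEK293T replicates, at 0.77 between the HCT116 replicates and at 0.55 to 0.62 between a table of one line and a table of the other. The points share libraries and read depth. Replicates of a line were thus somewhat closer to each other than to the other line.

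By class, the median difference in log2 fold was negative in mRNA with covering reads as the denominator and close to 0 in 18S and 28S rRNA and in mitochondrial mRNA and rRNA. In mRNA it was -0.19 at U and -0.25 at other bases with covering reads as the denominator, and at U it was 0.35 with library totals in their place, 0.01 with TMM factors, -0.11 without replicate 1 of HEK293T and -0.10 without replicate 2 of HCT116. It was -0.21 at 251 U of coding sequence, -0.25 at 106 U of 3′ UTRs and 0.06 at 37 U of 5′ UTRs. The medians were -0.04 in 18S rRNA, where library totals gave 0.39 and TMM factors 0.05, and -0.06 in 28S rRNA, where library totals gave 0.25. Mitochondrial mRNA and mitochondrial rRNA both had a median of -0.02 at U, against 0.06 and 0.04 at their other bases. The 45S precursor had -0.34 with covering reads and 0.04 with library totals. Mitochondrial tRNA had -0.33, with 0.11 under library totals, -0.19 without replicate 1 of HEK293T and 0.01 without replicate 2 of HCT116, and snRNA had -0.31. The medians of other bases also ran lower in mRNA than in mitochondrial mRNA.

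**Figure D2:**
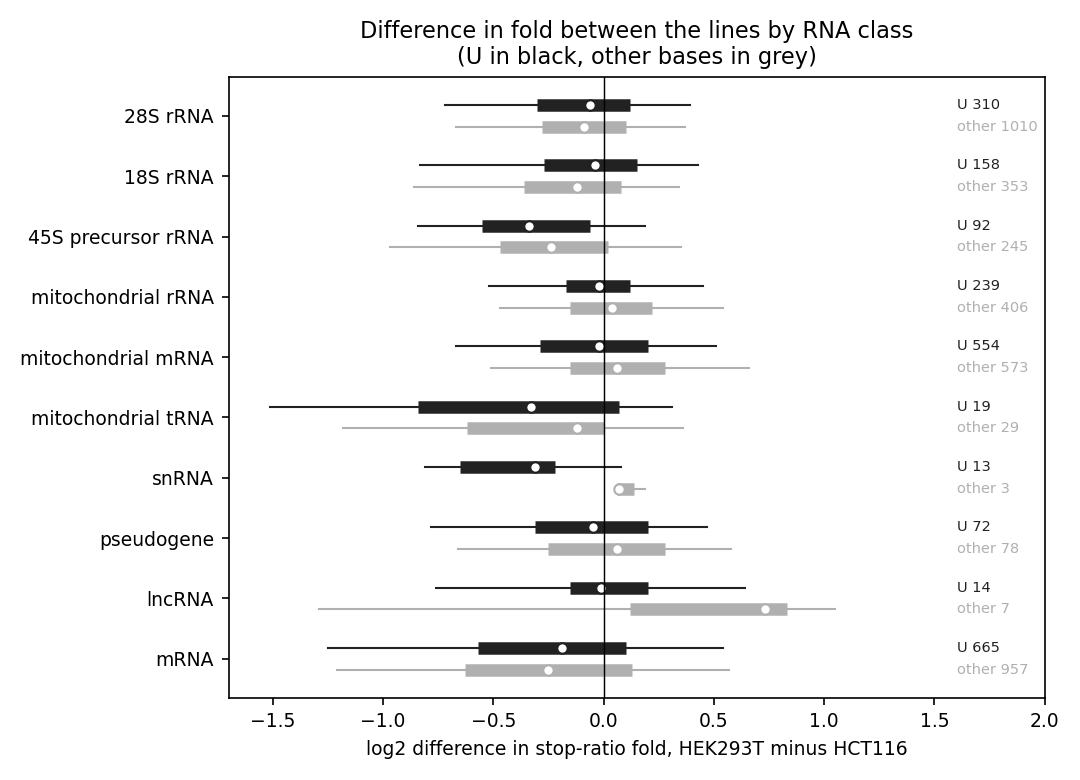
Difference in log2 stop-ratio fold (HEK293T minus HCT116) by RNA class, with the median as a point, the quartiles as a thick bar and the 5th to 95th percentiles as a thin one, for U in black and other bases in grey; n is printed at the right. The medians of mRNA (-0.19 at U, -0.25 at other bases) and of the 45S precursor (-0.34, -0.24) lie left of 0, and those of mitochondrial mRNA (-0.02, 0.06) lie near it.

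A fold of at least 4 in all 4 tables was reached by 25 distinct U, a choice that takes in only sites with strong folds in both lines. Of these, 17 lay in 28S rRNA, 4 in mitochondrial tRNAs, 3 in 18S rRNA and 1 in U4 snRNA. Copies included, these were 1.63% of U and 0.0457% of positions of other bases, or 0.583% of all tested positions. The difference between the lines was under 0.5 on the log2 scale at 22 of the 25, which were chosen by the same folds. The tables of the lines did not overlap at 11 of them, with HEK293T higher at 6 and HCT116 at 5. Of all tested positions, copies included, 17.2% and 36.2% were apart in these directions. These sites and those of the next paragraphs were chosen after their values were seen, except where the naming rule is stated.

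In 28S rRNA, nucleotide 3804 had folds of 6.17 and 9.31 in HEK293T and 8.93 and 9.90 in HCT116. Nucleotide 4518 had 5.46 and 8.83 in HEK293T and 8.19 and 10.1 in HCT116. The values of the lines overlapped at both, and the CMC+Terminator stop ratio was 13.7% and 16.1% in HEK293T against 17.7% and 16.8% in HCT116 at nucleotide 3804. In that ratio the lines were apart at 16 of the 25 strong U with HEK293T higher. They were apart at 4 with HCT116 higher, nucleotide 3804 among these. The share of all tested positions apart in that ratio is not given here. The median log2 difference of that ratio was 0.17 over all tested positions and 0.29 over 28S U. A lean to HEK293T was thus not confined to the strong U. Of the 17 strong U in 28S rRNA, only nucleotide 3744 differed by 0.5 or more in log2 fold between the lines. It had folds of 4.03 and 4.46 in HEK293T and 8.63 and 9.92 in HCT116. Its log2 difference was -1.12 ± 0.26 (SE), with an edgeR adjusted p of 0.195, so the tables were apart but the difference was not called. In 18S rRNA the sites were bases 34, 105 and 1056, each an annotated pseudouridine of the human RNA. Base 34 had 5.2 and 6.05 in HEK293T and 4.51 and 5.04 in HCT116. Its stop ratio after CMC and Terminator was 14.1% and 13.3% in HEK293T and 6.67% and 6.81% in HCT116, and the CMC- ratio was also higher in HEK293T, at 2.71% and 2.20% against 1.48% and 1.35%.

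RNU4-1 encodes U4, the snRNA that base-pairs with U6 before the spliceosome is activated. Its nucleotide 72, an annotated pseudouridine, had folds of 17.3 and 6.69 in HEK293T and 8.25 and 20.1 in HCT116, and stop ratios after CMC and Terminator of 49.0% and 48.8% in HEK293T and 37.5% and 31.6% in HCT116. The folds of the lines overlapped, and they rested on 10 CMC- stop reads in HEK293T and 6 in HCT116 over both replicates. Nucleotide 79 of the same RNA had 2.16 and 5.18 in HEK293T and 3.02 and 4.35 in HCT116. In U5, the snRNA that holds the exon ends, RNU5B-1 nucleotide 43 had 10.3 and 2.8 in HEK293T and 7.17 and 8.48 in HCT116, and nucleotide 53 had 4.58 and 3.56 in HEK293T and 8.19 and 7.41 in HCT116. Of these 4 sites only nucleotide 53 of RNU5B-1 kept the lines apart, with a log2 difference of -0.88 ± 0.44 (SE). Over all 13 snRNA U, the tables did not overlap at 5, all with HCT116 higher, as at 36.2% of all tested positions. The smallest unadjusted p of the class was that of RNU4-2 nucleotide 79, with 2.46 and 2.49 in HEK293T against 3.66 and 3.81 in HCT116 (adjusted p = 0.895, edgeR).

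**Figure D3:**
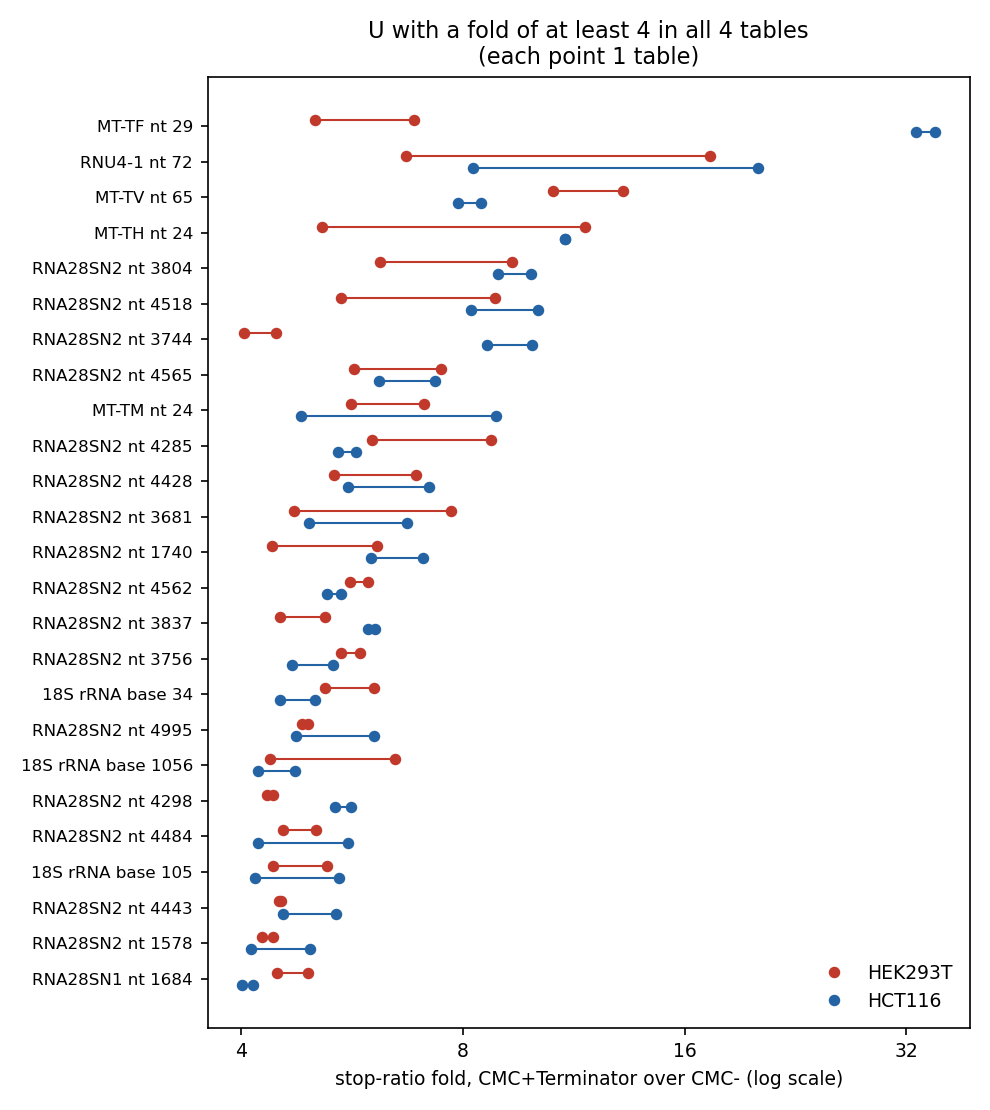
Stop-ratio fold (log axis) in each table for the 25 distinct U with a fold of at least 4 in all 4 tables, HEK293T in red above HCT116 in blue. The points of the lines lie close at most sites; 28S nucleotide 3744 and MT-TF nucleotide 29 have both HCT116 points to the right of both HEK293T points.

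Mitochondrial tRNAs held 19 U in 8 genes. MT-TF, the tRNA for phenylalanine, differed most. Its nucleotide 29 had folds of 5.04 and 6.87 in HEK293T and 35.0 and 33.0 in HCT116. The stop ratios after CMC and Terminator overlapped, at 9.12% and 6.31% in HEK293T and 8.09% and 5.54% in HCT116, while the CMC- ratios were 1.81% and 0.919% in HEK293T and 0.231% and 0.168% in HCT116. The HCT116 fold rested on 1 CMC- stop read in each library: pooled over replicates it was 34.4, with an exact 95% counting interval of 8.83 to 295, against 5.74 and 2.85 to 12.8 in HEK293T. Such intervals cover counting error only. The log2 difference was -2.46 ± 0.50 (SE) with an edgeR adjusted p of 0.339, and limma on the log2 folds gave an adjusted p of 0.00457.

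The other strong mitochondrial tRNA sites overlapped or were close. MT-TV nucleotide 65, in the tRNA for valine, had 13.2 and 10.6 in HEK293T and 7.87 and 8.47 in HCT116, with 3 CMC- stop reads in all in HEK293T and a pooled fold there of 12.4 (95% interval 3.96 to 62.4) against 8.16 (4.48 to 16.3) in HCT116. MT-TM nucleotide 24, in the tRNA for methionine, had 7.09 and 5.63 in HEK293T and 4.82 and 8.87 in HCT116. MT-TH nucleotide 24, in the tRNA for histidine, had 5.14 and 11.7 in HEK293T and 11 and 11 in HCT116. These 3 sites had log2 differences of 0.56, -0.01 and -0.40. Further along MT-TH, nucleotide 36 had 2.92 and 3.24 in HEK293T and 7.02 and 7.92 in HCT116, and MT-TE nucleotide 31, in the tRNA for glutamate, had 1.24 and 1.41 in HEK293T and 3.26 and 4.04 in HCT116. Both kept the lines apart, with log2 differences of -1.26 ± 0.35 and -1.41 ± 0.29 (SE) and edgeR adjusted p of 0.693 and 0.279. Of the 19 U, the tables did not overlap at 3 with HEK293T higher and at 8 with HCT116 higher, where 17.2% and 36.2% of all tested positions did so.

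Among nuclear tRNAs, which carry no poly(A) tail, 2 U met the minimum. Nucleotide 32 of tRNA-Glu-TTC-2-1 had folds of 2.43 and 3.50 in HEK293T and 12.0 and 13.8 in HCT116, on 2 CMC- stop reads in HCT116 (pooled fold 13.2, 95% interval 3.25 to 116). Nucleotide 64 of tRNA-Leu-TAG-3-1 had 2.41 and 2.88 in HEK293T and 4.05 and 6.72 in HCT116. Both were apart, with log2 differences of -2.12 ± 0.60 and -1.04 ± 0.47 (SE), and neither was called. RN7SK, the RNA that holds the elongation factor P-TEFb inactive, had 3.9 and 4.16 at nucleotide 249 in HEK293T and 3.64 and 6.03 in HCT116, which overlapped. RMRP, the RNA of the RNase MRP particle, had 1.36 and 1.93 at nucleotide 64 in HEK293T and 2.42 and 6.04 in HCT116, the smallest unadjusted p among other RNAs (adjusted p = 0.709, edgeR).

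In 18S rRNA, 38 U had a fold of at least 2 in all tables, and the lines were apart at 26 of them, 12 with HEK293T higher and 14 with HCT116 higher, where 17.2% and 36.2% of all tested positions were apart in these directions. Base 1692, an annotated pseudouridine, had the smallest p of all rRNA U: folds of 4.45 and 5.08 in HEK293T and 2.48 and 2.49 in HCT116. Its log2 difference was 0.97 ± 0.15 (SE), just under 2-fold, with an edgeR adjusted p of 0.0963. Its CMC+Terminator stop ratio was 11.8% and 12.7% in HEK293T and 4.87% and 4.03% in HCT116, and its CMC- ratio 2.66% and 2.50% in HEK293T and 1.97% and 1.62% in HCT116. Both ratios were thus higher in HEK293T, the treated one by more.

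Base 1624 of 18S rRNA went the other way, with folds of 2.39 and 2.20 in HEK293T and 5.48 and 6.05 in HCT116. Its stop ratio after CMC and Terminator was 6.05% and 5.21% in HEK293T and 10.1% and 10.4% in HCT116, against CMC- ratios of 2.53% and 2.37% in HEK293T and 1.84% and 1.72% in HCT116. The log2 difference in fold was -1.39 ± 0.24 (SE; adjusted p = 0.107, edgeR). Without replicate 1 of HCT116 it was -1.45, in a fit that left 1 HCT116 table. The next base, 1625, is an annotated pseudouridine and had 4.03 and 3.55 in HEK293T and 5.07 and 6.24 in HCT116. Base 1243 had 2.14 and 1.95 in HEK293T and 4.64 and 4.31 in HCT116, and the annotated pseudouridine after it, base 1244, had 3.51 and 3.45 in HEK293T and 4.92 and 5.07 in HCT116. Base 1101 had 1.34 and 1.76 in HEK293T and 3.43 and 3.12 in HCT116, and base 1642 had 2.47 and 2.28 in HEK293T and 3.69 and 4.01 in HCT116. All of these kept the lines apart, with HCT116 higher, and had edgeR adjusted p-values from 0.107 to 0.828.

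Base 1248 of 18S rRNA is the hypermodified pseudouridine of the decoding region, which stops reverse transcriptase also without CMC. Its CMC- stop ratio was 15.3% and 19.1% in HEK293T and 6.10% and 5.07% in HCT116, and after CMC and Terminator it was 35.2% and 33.9% in HEK293T and 18.9% and 15.4% in HCT116. Its fold, 2.30 and 1.78 in HEK293T and 3.09 and 3.03 in HCT116, therefore ran opposite to its stop ratios. The log2 difference in fold was -0.62 ± 0.14 (SE; adjusted p = 0.199, edgeR), and that in CMC+Terminator stop ratio was 1.02 ± 0.13 (adjusted p = 3.07e-05).

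In 28S rRNA, nucleotide 4687 had folds of 2.74 and 2.51 in HEK293T and 1.47 and 1.30 in HCT116, and nucleotide 3906 had 4.45 and 5.13 in HEK293T and 2.78 and 2.70 in HCT116. Nucleotides 4563 and 1898 were the reverse, with 1.36 and 1.46 in HEK293T against 2.63 and 3.17 in HCT116, and 1.18 and 1.00 in HEK293T against 2.17 and 2.14 in HCT116. The lines were apart at all 4. The log2 differences were 0.93 ± 0.15, 0.80 ± 0.15, -1.04 ± 0.18 and -1.01 ± 0.18 (SE), with edgeR adjusted p of 0.0973, 0.119, 0.111 and 0.111. Without replicate 1 of HCT116, nucleotide 4687 was called at 1.01 (adjusted p = 0.00476) and nucleotide 4563 at -1.16 (adjusted p = 0.00207); nucleotide 4562, directly before it, had folds of 5.62 and 5.95 in HEK293T and 5.23 and 5.47 in HCT116.

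Among mRNAs, RPL23 had the smallest p of any U. RPL23 encodes a protein of the large ribosomal subunit. Its nucleotide 497 had folds of 1.64 and 1.61 in HEK293T and 6.31 and 4.33 in HCT116. The stop ratio after CMC and Terminator was 10.3% and 10.2% in HEK293T and 17.7% and 18.7% in HCT116, and the CMC- ratio was 6.26% and 6.31% in HEK293T and 2.8% and 4.33% in HCT116. HCT116 was thus higher after treatment and lower without it, and neither pair overlapped. The log2 difference in fold was -1.62 ± 0.22 (SE; adjusted p = 0.0707, edgeR), and it was called at -1.94 without replicate 2 of HCT116 (adjusted p = 0.0243).

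The HCT116 folds of BSG and FAU rested on few CMC- reads. BSG, basigin, a membrane glycoprotein that escorts lactate transporters to the cell surface, had 1.01 and 2.06 at nucleotide 1053 in HEK293T and 19.3 and 7.52 in HCT116, on 1 and 2 CMC- stop reads in HCT116 (pooled fold 11.4, 95% interval 3.58 to 58.4). Its stop ratio after CMC and Terminator was 11.7% and 11.9% in HEK293T and 20.9% and 14.9% in HCT116. FAU, a ubiquitin-like protein fused to a ribosomal protein, had 1.40 and 2.17 at nucleotide 197 in HEK293T and 3.07 and 40.7 in HCT116, where replicate 2 had 1 CMC- stop read. Both kept the lines apart, and their log2 differences of -3.00 ± 0.60 and -2.08 ± 0.83 (SE) had edgeR adjusted p of 0.134 and 0.610. Without replicate 1 of HCT116 the FAU site was called at -4.39, with that single CMC- read as its only HCT116 control.

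RPLP0, the anchor of the ribosomal stalk, had 1.38 and 2.05 at nucleotide 452 in HEK293T and 6.02 and 4.95 in HCT116. There the CMC- ratios overlapped, at 3.36% and 2.68% in HEK293T and 2.8% and 2.60% in HCT116, and the CMC+Terminator ratio was 4.65% and 5.50% in HEK293T and 16.9% and 12.9% in HCT116. The stop ratio after treatment was called lower in HEK293T (log2 difference -1.56 ± 0.22, SE; adjusted p = 8.74e-05, edgeR), while the fold was not (-1.72 ± 0.33, SE; adjusted p = 0.190). At 3 further sites the log2 fold differences lay between -1.58 and -1.76 without a call. OAZ1, the antizyme that sends ornithine decarboxylase to degradation, had 1.65 and 1.33 at nucleotide 82 in HEK293T and 5.33 and 4.46 in HCT116. PPP2R1A, the scaffold of protein phosphatase 2A, had 1.11 and 1.79 at nucleotide 1230 in HEK293T and 6.56 and 4.04 in HCT116. RPL14, of the large subunit, had 1.7 and 1.38 at nucleotide 669 in HEK293T and 3.82 and 5.59 in HCT116. At these 3 sites the HCT116 folds rested on 6, 6 and 11 CMC- stop reads over both replicates, in that order. The counting intervals of the pooled HCT116 fold were 1.91 to 14.8, 1.92 to 14.7 and 2.36 to 10.5.

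Of the 4 U with a higher fold in HEK293T, CALR nucleotide 270 differed most. CALR encodes calreticulin, a calcium-binding chaperone of the endoplasmic reticulum. Its folds were 7.34 and 6.05 in HEK293T and 1.59 and 2.22 in HCT116, and its stop ratio after CMC and Terminator was 25.6% and 25.1% in HEK293T and 14.3% and 16.7% in HCT116. The CMC- ratio was 3.49% and 4.14% in HEK293T and 8.99% and 7.50% in HCT116, so here HEK293T was higher after treatment and lower without it, on 6 CMC- stop reads in all in HEK293T (pooled fold 7.05, 95% interval 3 to 20.2). The log2 difference was 1.86 ± 0.42 (SE; adjusted p = 0.400, edgeR). The other 3 were GAPDH nucleotide 669, in the mRNA of a glycolytic enzyme, with 3.72 and 2.10 in HEK293T and 1.11 and 1.10 in HCT116; MT-RNR2 nucleotide 429, in the large mitochondrial rRNA, with 3.29 and 2.78 in HEK293T and 1.28 and 1.41 in HCT116; and MT-ND4 nucleotide 1184, in the mRNA of a complex I subunit, with 3.86 and 2.34 in HEK293T and 1.34 and 1.40 in HCT116. Their log2 differences were 1.18, 1.18 and 1.13, none of them called.

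**Figure D4:**
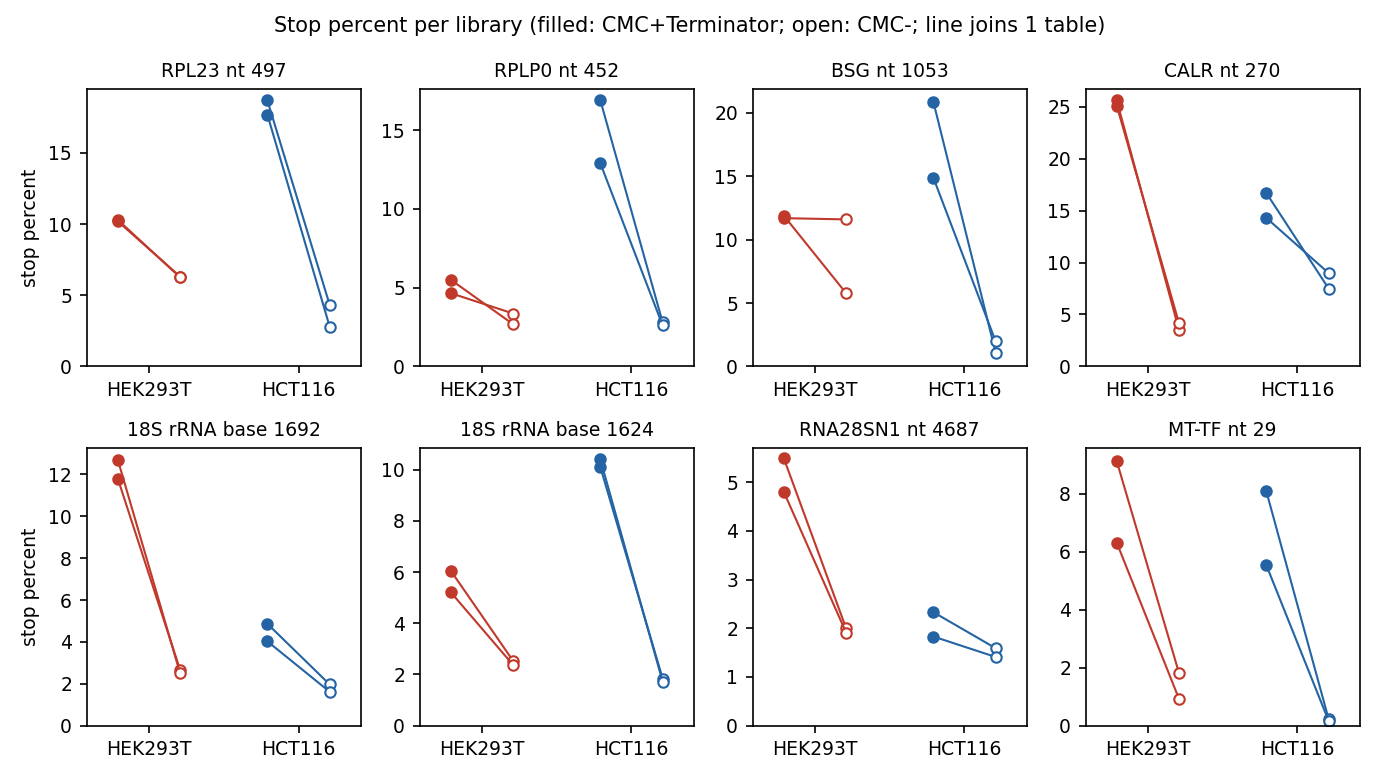
Stop ratio in percent at 8 named U, CMC+Terminator libraries as filled points and CMC- libraries as open points, with a line joining the libraries of 1 table and HEK293T left of HCT116. At RPL23, RPLP0 and BSG the HCT116 lines are steeper, at CALR, 18S base 1692 and 28S nucleotide 4687 the HEK293T lines are, and at MT-TF nucleotide 29 the open points of HCT116 lie at 0.231% and 0.168%.

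Some mRNA sites had strong folds in both lines. Of 66 mRNA U with a fold of at least 2 in all tables, in 49 genes, 22 lay in mRNAs of ribosomal proteins, and 7 U had a fold of at least 3. RPL11, of the large subunit, had 2 adjacent ones: nucleotide 477 had 4.44 and 4.24 in HEK293T and 3.65 and 3.86 in HCT116, and nucleotide 476 had 4.03 and 3.40 in HEK293T and 9.48 and 7.78 in HCT116, on 3 and 5 CMC- stop reads in HCT116. TRIM28, a corepressor of repeats and zinc-finger target genes, had 3.01 and 5.47 in HEK293T and 3.51 and 4.86 in HCT116, with stop ratios after CMC and Terminator of 29.8% and 39.4% in HEK293T and 32.5% and 53.1% in HCT116. EIF4A1, the RNA helicase of translation initiation, had 3.98 and 4.02 in HEK293T and 3.88 and 6.87 in HCT116. The remaining 3, in RPL37A, RPL19 and RPL35A, all of the large subunit, had folds from 3.27 to 17.1. Values of the lines overlapped at TRIM28, EIF4A1 and RPL35A. They were apart at the others, with HEK293T higher at RPL11 nucleotide 477 and HCT116 higher at RPL11 nucleotide 476, RPL37A and RPL19.

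The stop ratio of the CMC+Terminator libraries alone, with no control in the ratio, differed at more U. Copies included, 146 U were called higher in HEK293T and 83 higher in HCT116 (3.93% and 2.49% of all tested positions), or 88 and 69 distinct U. The median difference over all tested positions was 0.17 on the log2 scale, and centring on it gave 71 U higher in HEK293T and 149 higher in HCT116. With library totals as the denominator the counts were 331 and 1597, with a median shift of -1.78, and with TMM factors 1658 and 331. Without replicate 1 of HEK293T, 94 U were called higher in HEK293T. In the CMC- libraries the median difference was 0.29, and 4.4% of all tested positions were called higher in HEK293T and 1.12% higher in HCT116.

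The calls in the treated libraries went largely with the untreated ones. All 88 distinct U called higher in HEK293T had a higher CMC- ratio there too, 45 of them called, with a median log2 difference of 1.02 in CMC- against 1.13 in CMC+Terminator. Of the 69 called higher in HCT116, 58 had the same direction in CMC- and 18 were called, with medians of -0.68 in CMC- and -1.23 in CMC+Terminator. Over all distinct U the CMC- difference had a median of 0.28. A listed U had a fold of at least 1, so its CMC- ratio could not exceed its treated ratio of the same replicate. Agreement in direction was thus in part fixed by the listing. The median difference in log2 fold was 0.20 over the 88 and -0.64 over the 69. In the libraries with CMC but no Terminator, 28 of the 88 were listed in all 4 tables. All 28 had the same direction, and 9 were called. Of the 69, 14 were listed, 12 in the same direction and 1 called. There 1.54% and 0.0904% of 3319 tested positions were called higher in HEK293T and in HCT116. The median log2 difference without Terminator was 0.31 over the distinct U listed, so most U leaned to HEK293T.

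**Figure D5:**
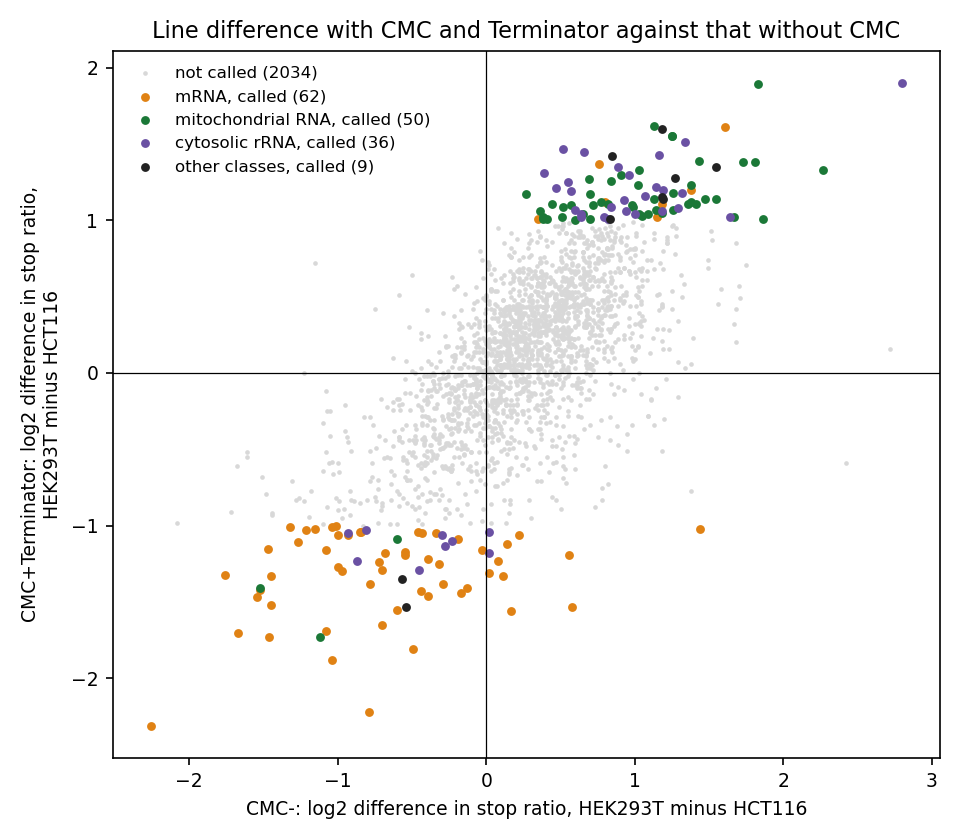
Log2 difference in stop ratio (HEK293T minus HCT116) in the CMC+Terminator libraries (vertical) against that in the CMC- libraries (horizontal), for the distinct U; grey points were not called in the CMC+Terminator libraries and coloured points were, by RNA class. The called mitochondrial RNA points lie mostly at the upper right, higher in HEK293T in both, and the called mRNA points mostly at the lower left, spread further to the right along the horizontal axis.

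By class, the called mRNA U were mostly higher in HCT116. Of 665, 7 were called higher in HEK293T and 55 higher in HCT116, 3 and 87 when centred, but 289 and 15 with library totals and 637 and 0 with TMM factors, so the direction of this class depends on the scaling. Positions of other bases in the same mRNAs behaved alike, with 3.03% called higher in HEK293T and 10.8% higher in HCT116, against 1.05% and 8.27% of U. The 55 U lay in 38 genes, 28 of them in mRNAs of ribosomal proteins, with 8 in ACTB, which encodes beta-actin, 4 in RPS2 and 3 in ACTG1, which encodes gamma-actin. The CMC- ratio was also higher in HCT116 at 46 of the 55, a direction in part fixed by the listing at a fold of at least 1. The fold was higher in HCT116 at 45.

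RPS4X, of the small subunit, had the lowest adjusted p among these. The stop ratio at its nucleotide 29 after CMC and Terminator was 8.07% and 7.02% in HEK293T and 35.0% and 39.8% in HCT116, and the CMC- ratio was 6.38% and 4.71% in HEK293T and 20.0% and 32.1% in HCT116. The log2 difference after treatment was -2.31 ± 0.17 (SE; adjusted p = 1.04e-06, edgeR) and 1.67 with TMM factors. Its folds, 1.27 and 1.49 in HEK293T and 1.75 and 1.24 in HCT116, overlapped. RPL35 nucleotide 645 had 2.53% and 1.75% in HEK293T and 10.8% and 9.60% in HCT116, ACTB nucleotide 765 had 2.99% and 3.13% in HEK293T and 9.55% and 13.6% in HCT116, and RPL10 nucleotide 707 had 4.39% and 5.07% in HEK293T and 15.9% and 14.5% in HCT116. PTMA, prothymosin alpha, an acidic nuclear protein, had 4.73% and 4.92% in HEK293T and 18.7% and 13.3% in HCT116 at nucleotide 625.

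Values of the lines were apart at all of these. NHP2, a core protein of the H/ACA particles, had 8.85% and 13.3% at nucleotide 415 in HEK293T and 41.4% and 32.5% in HCT116, and its folds of 1.81 and 3.57 in HEK293T and 1.97 and 3.03 in HCT116 overlapped. LDHB, a lactate dehydrogenase subunit, had 7.84% and 9.30% at nucleotide 1224 in HEK293T and 22.4% and 23.9% in HCT116. FASN, fatty acid synthase, had 15.4% and 16.9% at nucleotide 5709 in HEK293T and 39.5% and 31.9% in HCT116, a log2 difference of -1.12 (adjusted p = 0.0198, edgeR) whose adjusted p was 0.122 without replicate 1 of HCT116 and 0.125 and 0.0790 without either replicate of HEK293T. EIF5A, a translation elongation factor, had 4.45% and 4.31% at nucleotide 1053 in HEK293T and 12.7% and 20.0% in HCT116, and lost its call without replicate 2 of HCT116 (adjusted p = 0.0579).

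The 7 mRNA U called higher in HEK293T included 3 in EEF1A1 and 1 each in FTH1, GAPDH and ACTG1. EEF1A1, the factor that brings tRNAs to the ribosome, had 12.7% and 9.18% at nucleotide 732 in HEK293T and 4.05% and 3.30% in HCT116. FTH1, ferritin heavy chain, had 34.5% and 27.7% at nucleotide 538 in HEK293T and 15.5% and 11.9% in HCT116. The lines were apart in both, and also without CMC, where EEF1A1 had 6.58% and 8.16% in HEK293T and 2.69% and 2.37% in HCT116. The EEF1A1 call was lost without replicate 1 of HEK293T (adjusted p = 0.0589), and the FTH1 call without either replicate of HEK293T (0.260 and 0.0589) or replicate 2 of HCT116 (0.0822). GAPDH nucleotide 757 and ACTG1 nucleotide 328, at log2 differences of 1.02 and 1.01, lost theirs without replicate 1 of HEK293T (adjusted p = 0.143 and 0.0673), and GAPDH also without replicate 2 (0.0671) or replicate 1 of HCT116 (0.0964), where ACTG1 had 0.94. None of the 7 sequences was listed at 1 locus alone.

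Mitochondrial mRNAs were the class with most calls higher in HEK293T. Of 554 U in 13 genes, 41 were called higher in HEK293T and 1 higher in HCT116, 15 and 4 when centred, 21 and 5 with library totals, and 517 and 0 with TMM factors. Without replicate 1 of HEK293T, 20 were called higher in HEK293T. Of the other bases in these mRNAs, 8.2% were called higher in HEK293T, against 7.4% of U. The 41 U lay in 10 genes, with 9 in MT-CO1, 6 each in MT-CO2 and MT-CO3, which with MT-CO1 encode the core of cytochrome c oxidase, and 6 in MT-ND2 and 5 in MT-ND4, of complex I. Their median log2 difference was 1.12 in CMC+Terminator and 1.13 in CMC-, where 24 were called, and that in fold was 0.23.

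MT-ND2 nucleotide 624 had a stop ratio after CMC and Terminator of 61.6% and 36.6% in HEK293T and 11.1% and 14.2% in HCT116, and a CMC- ratio of 33.3% and 29.4% in HEK293T and 9.65% and 7.78% in HCT116. MT-CO3 nucleotide 277 had 35.7% and 36.0% in HEK293T and 10.2% and 14.3% in HCT116 after treatment, and nucleotide 29 had 12.2% and 13.5% in HEK293T and 4.5% and 4.36% in HCT116. MT-ND4 nucleotide 1288 had 10.6% and 9.71% in HEK293T and 3.24% and 3.43% in HCT116. The lines were apart at all 4, with log2 differences from 1.55 to 1.89 and edgeR adjusted p from 2.12e-05 to 0.000205. Their folds lay between 1.12 and 2.06 in every table. With library totals the difference at MT-CO3 nucleotide 277 was -0.37. In mitochondrial rRNA, MT-RNR2 nucleotide 1342 went the other way, with 2.12% and 1.83% in HEK293T and 7.25% and 5.97% in HCT116 after treatment and 1.91% and 1.83% in HEK293T and 4.23% and 3.96% in HCT116 without CMC.

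In rRNA, 10 U of 18S and 15 of 28S were called higher in HEK293T, against 1 and 3 higher in HCT116; with library totals the counts were 0 and 0 higher in HEK293T and 158 and 306 higher in HCT116, and with TMM factors 0 and 4 higher in HEK293T and 53 and 61 higher in HCT116. Higher in HEK293T were 6.33% of 18S U and 2.55% of its other bases, and 4.84% of 28S U and 4.26% of its other bases. Without replicate 1 of HEK293T, 6 U of 18S were called higher in HEK293T. The 10 included bases 1692, 1248, 34 and 119, all annotated pseudouridines. Base 119 had 6.82% and 4.70% in HEK293T and 2.91% and 2.55% in HCT116. In 28S rRNA, nucleotide 3906 had 10.7% and 11.2% in HEK293T and 4.45% and 3.66% in HCT116, a log2 difference of 1.45 ± 0.13 (SE; adjusted p = 2.89e-06, edgeR), and nucleotide 4687 had 5.49% and 4.80% in HEK293T and 2.33% and 1.83% in HCT116. Nucleotide 729, in a sequence listed at 1 locus, had 5.81% and 5.64% in HEK293T and 1.15% and 1.84% in HCT116, with CMC- ratios of 2.84% and 2.60% in HEK293T and 0.287% and 0.431% in HCT116, so its folds of 2.04 and 2.17 in HEK293T lay below those of 4.01 and 4.27 in HCT116. Nucleotide 126 of 5.8S rRNA had 3.70% and 2.85% in HEK293T and 1.14% and 1.09% in HCT116, with folds between 1.03 and 1.58. The lines were apart in stop ratio at each of these sites.

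Among noncoding RNAs, SNORD3A, the U3 snoRNA that guides processing of the pre-rRNA, had 14.6% and 11.6% at nucleotide 60 in HEK293T and 3.59% and 4.92% in HCT116 (log2 difference 1.60 ± 0.23, SE; adjusted p = 0.000124, edgeR). It also had the smallest p of its class for the fold, with 1.73 and 1.44 in HEK293T and 1.09 and 1.25 in HCT116. MALAT1, an abundant nuclear lncRNA, had 34.8% and 25.1% at nucleotide 113 in HEK293T and 9.43% and 11.6% in HCT116, a call lost without replicate 1 of HEK293T (adjusted p = 0.128). SNHG29, a snoRNA host transcript, had the smallest p for the fold among lncRNAs, with 1.82 and 3.57 in HEK293T and 9.33 and 4.34 in HCT116. The lines were apart in all of these values.

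Of the gene lists, ribosomal proteins held most of the mRNA sites. In their 62 genes with members, 308 U had a median log2 fold difference of -0.19, the same as the -0.19 over all mRNA U. Over all tested positions it was -0.09. In the CMC+Terminator libraries 1 was called higher in HEK293T and 28 higher in HCT116, where 1.05% and 8.27% of all mRNA U were called. Translation factors had 3 and 2 of 87 U called, glycolytic enzymes 1 and 3 of 51, the cytoskeleton 1 and 13 of 97, lipogenic enzymes 0 and 1 of 10, ferritins 1 and 0 of 3, and the dyskerin complex and nucleolus 0 and 1 of 2. Heat shock proteins had 0 calls either way among 11 U and endoplasmic reticulum chaperones 0 among 5. Epithelial keratins and histones had no member U. For the fold, 0 U of any list were called.

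The sequences around the U rarely matched enzyme motifs. The PUS7 motifs, UNUAA and UNUAG with the modified U in the middle, were found at 52 of the 2191 distinct U (2.37%), on the RNA strand, with 17 in mitochondrial rRNA, 14 in mitochondrial mRNA, 7 in 28S rRNA, 4 in 18S rRNA and 4 in mRNA. Their median log2 fold difference was 0.00 after rounding, and 7 had a fold of at least 2 in all tables. The 4 mRNA sites were RPLP1 nucleotide 744, with 1.61 and 1.88 in HEK293T and 2.10 and 3.66 in HCT116, ACTG1 nucleotide 1573, with 1.92 and 1.88 in HEK293T and 1.35 and 1.17 in HCT116, and 2 U of EEF2. The TRUB1 motif GUUCNANNC was found at 1 U, nucleotide 64 of tRNA-Leu-TAG-3-1. Of the 136884 distinct U listed in any of the 4 tables, 0.858% held a PUS7 motif and 0.111% the TRUB1 motif, again on the RNA strand. A match is a description of the letters alone.

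As examples of like folds with many reads, chosen by the naming rule, ACTB nucleotide 482 had 1.16 and 1.5 in HEK293T and 1.36 and 1.20 in HCT116, and MT-RNR2 nucleotide 328 had 1.15 and 1.47 in HEK293T and 1.32 and 1.30 in HCT116. RN7SL2, the RNA of the signal recognition particle, had 1.09 and 1.39 at nucleotide 95 in HEK293T and 1.11 and 1.43 in HCT116, and 28S nucleotide 1568 had 1.22 and 1.29 in HEK293T and 1.17 and 1.34 in HCT116. Values of the lines overlapped at all 4. The smallest p in mitochondrial RNA was that of MT-RNR2 nucleotide 385, with 1.94 and 1.59 in HEK293T and 2.74 and 4.45 in HCT116 (log2 difference -1.04 ± 0.24, SE; adjusted p = 0.202, edgeR).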

How the data were processed

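Stop reads and covering reads of each position were taken from the deposited tables of 4 CMC+Terminator and 4 CMC- libraries. Per the file headers these are counts of stop reads and of reads that cover the position, stops included. In the HCT116 tables the deposited counts are whole, and in the HEK293T tables they are expected counts with fractions, rounded for edgeR and DESeq2. RPM values deposited by the authors served only to derive library totals. The submitters' processing notes name cutadapt 2.8, STAR and the hg38 build; the STAR version is not given in the sources used here. The name column of the deposited tables names rtsSeeker as the source of the positions.

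Stop reads were fitted with edgeR 4.0.16 (glmQLFit, glmQLFTest; R 4.3.3), with the log of covering reads as offset. The block was the table, which pairs each CMC+Terminator library with its own CMC- library, as the series design describes the replicates. Deviations of paired libraries from their group means correlated at 0.02 in HEK293T and 0.13 in HCT116. The tested coefficient was treatment by line, and a second fit compared the 4 CMC+Terminator libraries alone. The Benjamini-Hochberg adjustment ran over the 9953 positions with at least 10 treated stop reads in each table, and a call needed an adjusted p under 0.05 and a 2-fold difference. The SE was the size of the difference over the square root of F. Scripts were tested on simulated data. DESeq2 1.42.0 and limma 3.58.1 were alternatives, with library totals, TMM factors, centring, other read minimums, 1 position per sequence and each replicate left out. With a replicate left out, its line had 1 table and gave no spread between replicates. A restriction to sequences listed once, and fits of the CMC- and CMC-alone libraries, were added after seeing the data.

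Members, gene lists and tests were chosen with earlier results of these data known. The naming rule asked for called U with the largest differences in all, per RNA class and per gene list. As no fold was called, it gave the U of smallest p in each class and, per class, a well-covered U with like folds; the gene-list part was applied to calls in the CMC+Terminator libraries, and all other named sites were chosen after their values were seen. Gene names and transcript positions are the tables' own; where the GENCODE 29 transcript was at hand, its base matched at 4159 of 4159 positions, and regions come from it. GAPDH and other sites in a noncoding exon are so placed by the transcript the table names. 18S bases are the transcript position less 1. Reads matching several loci cannot be assigned, so copies of rRNA, mitochondrial and pseudogene sequences are uncertain as to locus. Some sites that the naming rule or the ranking gave are not reported here.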

Additional observations from a re-analysis of the deposited data

How the results depend on the processing

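For the fold, the counts of U called higher in HEK293T and in HCT116, 0 and 0, were 35 and 0 with library totals in place of covering reads, 0 and 1 with limma on log2 folds, 0 and 8 at a minimum of 30 treated stop reads, and 0 and 1 for sequences listed once. With no replicate block, so without pairing each CMC+Terminator library with its CMC- library, they were 0 and 4. Leaving out 1 replicate gave 0 to 1 and 0 to 7, the highest in both directions without replicate 1 of HCT116. Among the U named by the rule, 0 were called, and 1 with no replicate block, with library totals, at the minimum of 30 reads and for sequences listed once, and 0 to 1 when 1 replicate was left out, all of them RPL23 except with library totals, where it was 18S base 1692. The cause of these changes was not tested. For the CMC+Terminator stop ratio, the counts of 146 higher in HEK293T and 83 higher in HCT116 were 71 and 149 when centred, 331 and 1597 with library totals, 1658 and 331 with TMM factors, 82 and 25 with DESeq2, which gave no adjusted p for 606 of the U, 69 and 2 at a minimum of 30 reads, 88 and 69 at 1 position per sequence and 26 and 43 for sequences listed once. With no read minimum 177 were called higher in HCT116. Leaving out 1 replicate gave 94 to 184 and 62 to 86. Of the named log2 differences in that ratio, those that changed sign with library totals were -0.11 at FTH1, 0.53 at EIF5A, 0.01 at RPL27, 0.27 at FASN, 1.09 at NHP2, 0.06 at ACTB, 0.53 at RPL35, 0.07 at MT-RNR2 nucleotide 1342, -0.37 at MT-CO3 nucleotide 277, -1.52 at 28S nucleotide 3906 (RNA28SN2), -0.13 at 28S nucleotide 729 (RNA28SN3), -1.29 at 18S base 1692 (RNA18SN1) and -1.66 at RNA5-8SN1. With TMM factors they were 1.47 at LDHB, 0.12 at RPLP0, 2.22 at EIF5A, 1.71 at RPL27, 1.96 at FASN, 0.37 at PTMA, 2.79 at NHP2, 1.75 at ACTB, 2.22 at RPL35, 1.67 at RPS4X, 0.75 at RPL10 and 1.77 at MT-RNR2. The fold difference at RMRP was 0.04 with library totals. Library totals and TMM factors put transcript level into the ratio by construction, since they do not divide by the reads that cover a position. The median number of CMC- stop reads per U was 13.2 in HEK293T and 15.5 in HCT116 in mRNA. It was 8.5 and 14 in mitochondrial tRNA, 7.28 and 11 in snRNA, and 17.9 and 220 in 18S rRNA. With a minimum of 5 CMC- stop reads, 0 U were called for the fold in either direction. Whether control depth limited the calls was not tested.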
